A study of Danio rerio with 4 samples.

Results

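Venous endothelium is described here as 198 cells, chosen by their counts of marker genes from 5191 cells that passed the quality limits, out of 7677 called cells. A cell was taken when it held a unique molecular identifier (UMI, the tag that marks 1 captured RNA molecule) of at least 3 of 8 pan-endothelial genes (cdh5, tie1, pecam1, egfl7, sox18, she, clec14a, ecscr) and of at least 3 of 8 venous genes (dab2, lyve1a, lyve1b, stab1, stab2, mrc1a, ephb4a, gpr182). It also had to hold no UMI of prox1a, tbx1, cdh6, hand2 and gata5, genes of lymphatic endothelium, endocardium and heart. In all, 1304 cells met the endothelial condition, so that the venous cells were compared with 1106 other endothelial cells. Of 416 cells that met the endothelial and venous conditions, 218 were taken out by the excluded genes, among them 146 with cdh6, 109 with prox1a and 90 with tbx1. The levels of these 21 genes chose the cells and are given as a description only.

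Veins of the zebrafish embryo collect blood from the arterial side and, in the trunk and tail, line the bed in which blood stem cells lodge. Their endothelium is a scavenger tissue: stabilins, the mannose receptor Mrc1a and Lyve1 bind waste macromolecules, lipoproteins and hyaluronan in the plasma, clathrin adaptors such as Dab2 bring them into the cell, and cathepsins and other hydrolases degrade them in lysosomes. Veins are also the source of lymphatic vessels and of many angiogenic sprouts, and they differ from arteries by low Notch signalling and by the nuclear receptor Nr2f2.

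The libraries came from GFP-positive cells sorted from whole Tg(kdrl:EGFP)zf531Tg embryos at 3 dpf (days post fertilization), a line in which the kdrl promoter drives GFP in endothelium and in some blood cells. The allele is given as labelled, and the study's methods name another one for this transgene. WT embryos gave 2 libraries and flt1 mutant embryos (allele flt1ka604, labelled flt1mut) gave 2, with the transgene in every group. flt1 encodes a receptor that binds Vegfa and limits its signalling. Each library was a pool of embryos, so that replicates measured the spread between pools.

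Cell calling left 1190 and 1389 barcodes in the WT libraries and 3261 and 1837 in the flt1 mutant libraries, with 16828951 to 33837917 UMIs in each. The venous cells numbered 25 and 59 in the WT libraries and 66 and 48 in the flt1 mutant libraries. Over all libraries they had a median of 8451.5 UMIs and 2247.5 genes per cell, against 8024 UMIs in the other endothelial cells. In the WT libraries the venous medians were the lower ones, 6753 and 8718 UMIs against 8523 and 9904. In the flt1 mutant libraries they were the higher ones, 8638.5 and 8140.5 UMIs against 6818.5 and 7579. The summed counts of venous cells ranged from 209860 to 592432 UMIs per library. Across the libraries 8 called barcodes were shared, none of them by venous cells. Markers of some other cell types varied strongly between the libraries. The summed level of 8 erythrocyte markers in venous cells was 1482, 16.6, 521.6 and 162.7 CPM (counts scaled to the total of the library's venous cells) in WT replicates 1 and 2 and flt1 mutant replicates 1 and 2, an order kept for all series of 4 values below. Myeloid markers summed to 1225 CPM in WT replicate 1 and to between 34.9 and 87.8 CPM elsewhere, with 8 of 12 detected and mpeg1.1, mfap4, cd74a and marco at 0. Epithelial markers summed to 390.7, 9.20, 2397 and 48.8 CPM, with 7 of 8 detected and cldne at 0. Neural markers were steadier, at 295.4, 633.2, 351.1 and 546.3 CPM in venous cells. In the other endothelial cells they summed to 327.0, 420.1, 328.2 and 546.2 CPM. Whether these markers came from other cells or from the endothelial cells themselves was not tested. Mixed cells held 2 or more myeloid, mesenchymal, neural or epithelial markers of 1 kind, or over 1% of UMIs from erythrocyte markers. They were 108 of the 198 venous cells and 697 of the 1106 other endothelial cells. Leaving them out cut the genes tested against the other cells from 8653 to 4132. Where a call was then lost, the value is given with the gene, and the part of the lower counts in such losses was not tested. Genes whose counts were then too low were not tested in that alternative.

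The scavenger receptors that chose the cells were present at high levels in all libraries. lyve1a, a hyaluronan receptor gene, was the most abundant of the 8 venous genes, at 1282, 1614, 492.9 and 1146 CPM. dab2, the clathrin adaptor, stood at 381.2, 377.4, 344.3 and 483.5 CPM, and lyve1b at 233.5, 368.2, 324.1 and 455.6 CPM. lyve1a was lowest in flt1 mutant replicate 1 and lyve1b in WT replicate 1, while the levels of dab2 lay closer together in the 4 libraries. gpr182, an atypical chemokine receptor gene, stood at 219.2 to 416.0 CPM, stab1 at 157.0 to 265.1 CPM and stab2 at 131.7 to 156.5 CPM. The lowest levels were those of ephb4a, the receptor of the arterial ligand Ephrin-B2, at 47.3 to 70.0 CPM, and mrc1a, at 38.1 to 65.1 CPM. CPM from 3-prime tags are not divided by gene length.

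A UMI of dab2 was found in 71.2% of venous cells, of stab1 in 71.2%, of lyve1b in 72.7%, of gpr182 in 71.7%, of lyve1a in 54.0%, of stab2 in 48.0%, of ephb4a in 39.4% and of mrc1a in 28.8%. In 240 erythrocytes, chosen to hold no UMI of the 8 pan-endothelial genes and with a median of 21157.5 UMIs, the shares were at most 1.67%. That choice takes out cells with stray endothelial RNA, so these shares do not measure the background in full. No single gene marked all the cells. All 5 defining markers (dab2, stab1, lyve1a, lyve1b and mrc1a) are genes of the rule, so their detection here does not check the venous name. Each is also described below with the gene left out of the rule.

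**Figure D1:**
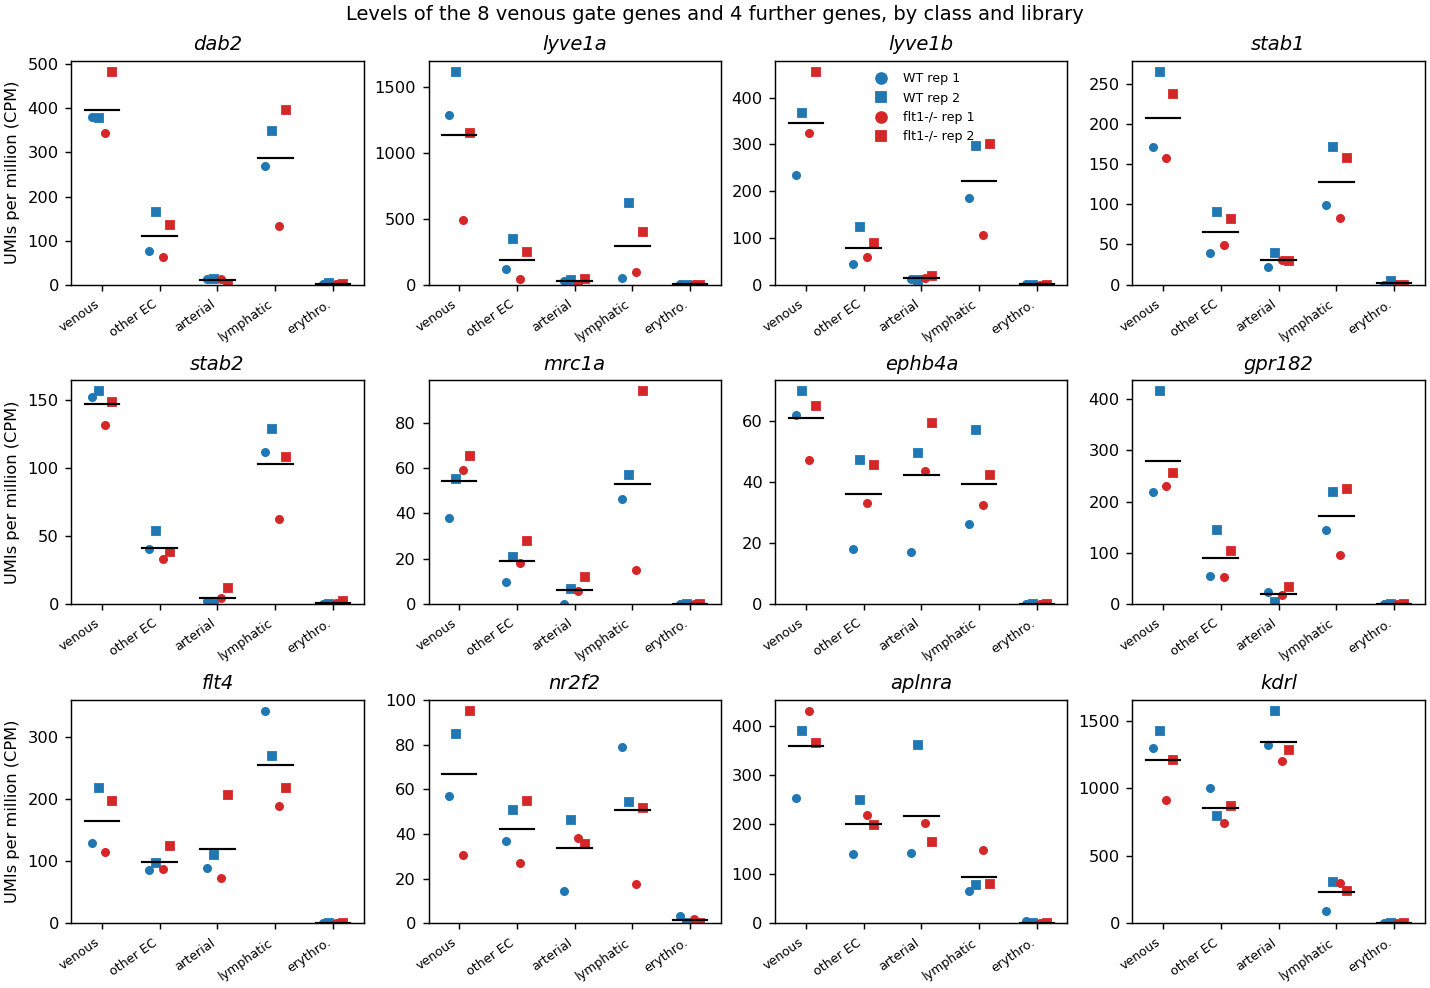
Levels of the 8 venous genes of the rule and of flt4, nr2f2, aplnra and kdrl in CPM, on linear axes that differ between panels, for venous, other endothelial (other EC), arterial and lymphatic cells and erythrocytes, where each point is 1 library (flt1-/- marks the flt1 mutant libraries) and each bar the mean of 4. The points of dab2 for venous cells sit between 344.3 and 483.5 CPM, above all arterial points, while lymphatic points overlap with them.

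Genes of the same class that the rule did not use gave a mixed picture of venous identity. nr2f2, the venous nuclear receptor gene, stood at 57.2, 84.7, 30.4 and 95.3 CPM in venous cells and at 36.8, 50.7, 27.1 and 54.9 CPM in the other endothelial cells. It was higher in venous cells in all 4 libraries, but the ranges overlapped and the difference did not pass the test (log2 0.55, SE 0.19, adjusted p = 0.130, edgeR). kdrl, the main Vegfa receptor gene of zebrafish and the source of the sorting promoter, was at 1296, 1421, 909.8 and 1211 CPM, and its level did not separate venous from arterial cells (log2 -0.18, SE 0.14, adjusted p = 0.609, edgeR).

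The cells were not uniform. Exactly 3 venous genes were held by 63 cells (31.8%), 4 by 37, 5 by 43 and 6 to 8 by 55. Just outside the rule lay 64 cells with 2 venous genes, which met all other conditions, and 323 more held 1 or 0. At the threshold, the mean level of lyve1a over the 4 libraries was 446.0 CPM in cells with 3 venous genes and 128.7 CPM in cells with 2, and that of dab2 was 102.4 and 35.2 CPM. The number of venous genes found also moved with depth, from a median of 7094 UMIs per cell with 2 genes to 8884 with 6 to 8, and its part in these levels was not tested.

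The means of some genes outside the rule followed the same gradient, given here as a description over sums of 4 to 24 cells per library in the groups with 2 or more venous genes. Single libraries did not all follow the order of the means. lgmn, which encodes the lysosomal protease legumain, had a mean of 45.6 CPM in cells with 2 venous genes, 105.6 with 3, 303.7 with 4, 337.1 with 5 and 522.9 with 6 to 8. Its mean was 61.8 CPM with 1 or 0. In WT replicate 1 it was at 0, 60.3, 607.7, 97.0 and 438.8 CPM in the groups from 2 to 6 to 8. ctsla, a cathepsin L gene, had means of 2222, 3052, 4110, 4126 and 5879 CPM in these groups, with SDs over the libraries of 819.8 to 2810 CPM. cxcr4a, an arterial chemokine receptor gene, was lower in the venous groups but in no steady order, at 1235 CPM in cells with 1 or 0 venous genes, 658.2 CPM with 2, 236.3 CPM with 3, 2.02 CPM with 4, 6.24 CPM with 5 and 54.4 CPM with 6 to 8. kdrl showed no such order, with means between 868.7 and 1581 CPM. Nor did nr2f2, whose mean was 90.1 CPM with 2 venous genes and 50.2, 75.8, 63.6 and 84.4 CPM in the venous groups. For aplnra the mean was 334.5 CPM with 2 and 278.8, 469, 346.6 and 384 CPM in the venous groups. Means of flt4 were 139.1 CPM with 2 and 139.4, 163.9, 156.5 and 215.7 CPM in the venous groups. Arterial genes were not lost altogether: a mean of 2.41 of 8 arterial genes (efnb2a, dll4, hey2, cxcr4a, dlc, notch3, unc5b, gja5b) had a UMI in cells with 3 venous genes and 2.42 in cells with 6 to 8, against 3.19 in cells with 1 or 0. In all, 102 of the 198 venous cells (51.5%) held at least 3 of these arterial genes.

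**Figure D2:**
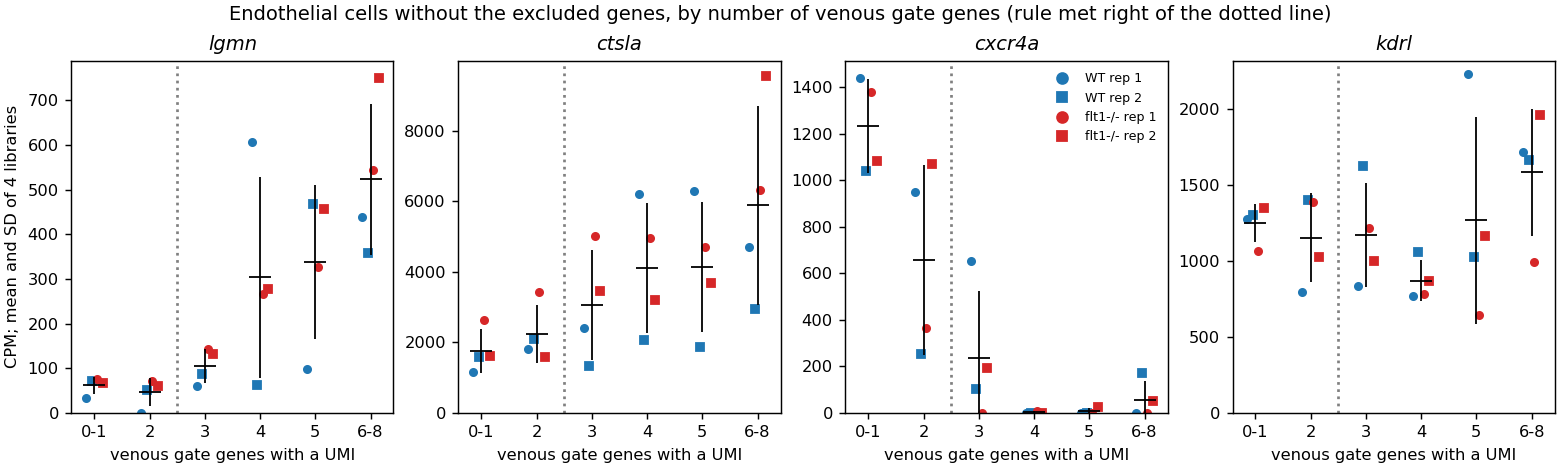
Levels of lgmn, ctsla, cxcr4a and kdrl in CPM, on linear axes, against the number of the 8 venous genes with a UMI, for cells that met the endothelial condition and lacked the 5 excluded genes, where points are libraries, horizontal bars are means and vertical bars SD over 4 libraries, and the rule is met right of the dotted line. The mean of lgmn goes from 45.6 CPM at 2 venous genes to 522.9 CPM at 6 to 8, and that of cxcr4a is 658.2 CPM at 2, 2.02 CPM at 4 and 54.4 CPM at 6 to 8.

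To measure each venous gene where it had not chosen the cells, the rule was applied again with that gene left out (at least 3 of the other 7), and its level was compared with that in the remaining endothelial cells. In these 8 fits 5.5% to 6.33% of all genes tested passed the threshold. In venous cells 7 of the 8 left-out genes were higher in all 4 libraries and passed the test. All 8 were put in the rule with earlier results of these data known. The remaining cells could also hold the excluded genes. These values therefore describe the cells and do not check the rule or co-expression. The largest difference was that of lyve1a, with 1135 CPM against 207.6 CPM (log2 2.52, SE 0.23, adjusted p = 6.03e-06, edgeR). lyve1b followed at log2 2.15 (SE 0.18), dab2 at 1.93 (SE 0.21), stab2 at 1.61 (SE 0.17), stab1 at 1.59 (SE 0.16) and gpr182 at 1.54 (SE 0.16), with adjusted p-values between 3.87e-06 and 6.92e-05 in edgeR. mrc1a differed by log2 1.31 (SE 0.23, adjusted p = 0.00306, edgeR).

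ephb4a, a classical venous marker gene, was the exception. Its level was 45.3 ± 13.4 CPM (SD, n = 4 libraries) in cells chosen by the other 7 genes and 38.7 ± 12.8 CPM in the remaining endothelial cells. The difference of log2 0.17 (SE 0.20, adjusted p = 0.805, edgeR) was smaller than the spread between libraries, and it was positive in 3 of 4 libraries. Among 189 venous cells thinned to 2000 UMIs each, lyve1a was found in 52.4% of cells with dab2 and 30.5% of cells without it. For ephb4a the shares were 8.33% with dab2 and 15.2% without. The rule asks for several genes at once, which shapes these shares, and they are given without a test.

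Venous cells were next compared with the other endothelial cells, over sums of counts per library with the library as a block. After the 21 genes of the rule were removed, 8653 genes were tested, of which 205 (2.37%) were higher and 299 (3.46%) lower in venous cells (edgeR, adjusted p under 0.05). The median log2 difference over all genes was -0.02. Since the other cells could hold the excluded genes and the venous cells could not, differences in lymphatic, endocardial and heart genes follow in part from the rule. An alternative chosen after the data had been seen therefore kept only the 387 other endothelial cells that also lacked a UMI of the 5 excluded genes. It called 186 of 6287 genes higher and 148 lower, 170 of which were among the 504 calls of the main comparison. Its values are set beside the main ones below as the matched comparison. All 262 arterial cells described below are among these 387 cells, so the matched values are largely a comparison with arterial cells.

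Among genes at 100 CPM or more in venous cells that were higher in all 4 libraries, the largest differences were those of apoeb, prcp, selenop and cxcl12a. prcp (ENSDARG00000037883), which encodes a lysosomal and secreted carboxypeptidase that cuts angiotensin and kinin peptides, was at 128.7, 206.2, 151.9 and 209.2 CPM in venous cells and at 33.8, 46.1, 39.0 and 62.1 CPM in the other cells. The ranges did not overlap, and the difference was log2 1.90 (SE 0.16, adjusted p = 8.65e-06, edgeR).

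selenop (ENSDARG00000093549), the gene of the plasma selenium carrier selenoprotein P, was at 509.9, 325.8, 525.0 and 590.5 CPM against 89.9, 157.9, 116.7 and 151.5 CPM. Every venous sum lay above every other sum, with a difference of log2 1.85 (SE 0.21, adjusted p = 0.000102, edgeR) and of log2 2.57 in the matched comparison.

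sele (ENSDARG00000009123), which encodes E-selectin, the adhesion molecule that lets leukocytes roll on the vessel wall, was at 781.5, 406.8, 921.6 and 437.0 CPM against 149.0, 184.2, 228.1 and 152.8 CPM. These ranges were also separate (log2 1.70, SE 0.19, adjusted p = 0.000102, edgeR; log2 2.42 in the matched comparison). Against the lymphatic cells described below, sele was called higher too, but the call was kept in only 3 of 12 alternatives. It was lost without WT replicate 1 (log2 0.45), WT replicate 2 (0.56), flt1 mutant replicate 1 (0.63) or mixed cells (0.75), among others. The 2 libraries with the highest sele levels, WT replicate 1 and flt1 mutant replicate 1, came from different genotypes.

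cxcl12a (ENSDARG00000037116), the chemokine that retains blood stem cells and guides migrating cells, was at 71.5, 162.0, 376.4 and 392.9 CPM against 50.1, 66.1, 58.0 and 84.4 CPM. It was higher in venous cells within each library, but the ranges overlapped through the low WT replicate 1. The difference was log2 1.80 (SE 0.28, adjusted p = 0.00127, edgeR) and passed the test in the matched comparison, at log2 2.59. Against the lymphatic cells described below cxcl12a gave no call. plvapb (ENSDARG00000045003), which encodes the protein of fenestral and caveolar diaphragms, was the most abundant of the leading genes, at 557.5, 2238, 1295 and 1899 CPM against 241.9, 469.4, 309.9 and 725.2 CPM (log2 1.68, SE 0.19, adjusted p = 0.000104, edgeR). In the matched comparison its difference was smaller, log2 0.74 (adjusted p = 0.0255, edgeR).

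Of the other leading genes, gpm6ab, a membrane glycoprotein gene, differed by log2 1.64 and the unnamed gene LO018188.1 by 1.51, and both passed the test in all 13 alternatives, as did prcp, selenop, sele, cxcl12a and plvapb. apoeb, the gene of the lipoprotein component apolipoprotein E, differed by log2 1.91. Its venous levels were 38.1, 51.5, 300.5 and 99.96 CPM, flt1 mutant replicate 1 being the highest, and it no longer passed once mixed cells were left out (log2 0.91, adjusted p = 0.426, edgeR). kirrel3l, at log2 1.63, passed in the matched comparison as well. tnfaip2b, exoc3l2a and CABZ01075125.1, at log2 1.75, 1.58 and 1.59, did not pass in the matched comparison, at 0.77, 0.19 and 0.39. exoc3l2a and CABZ01075125.1 did not pass with mixed cells left out either, at 0.67 and 1.05.

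**Figure D3:**
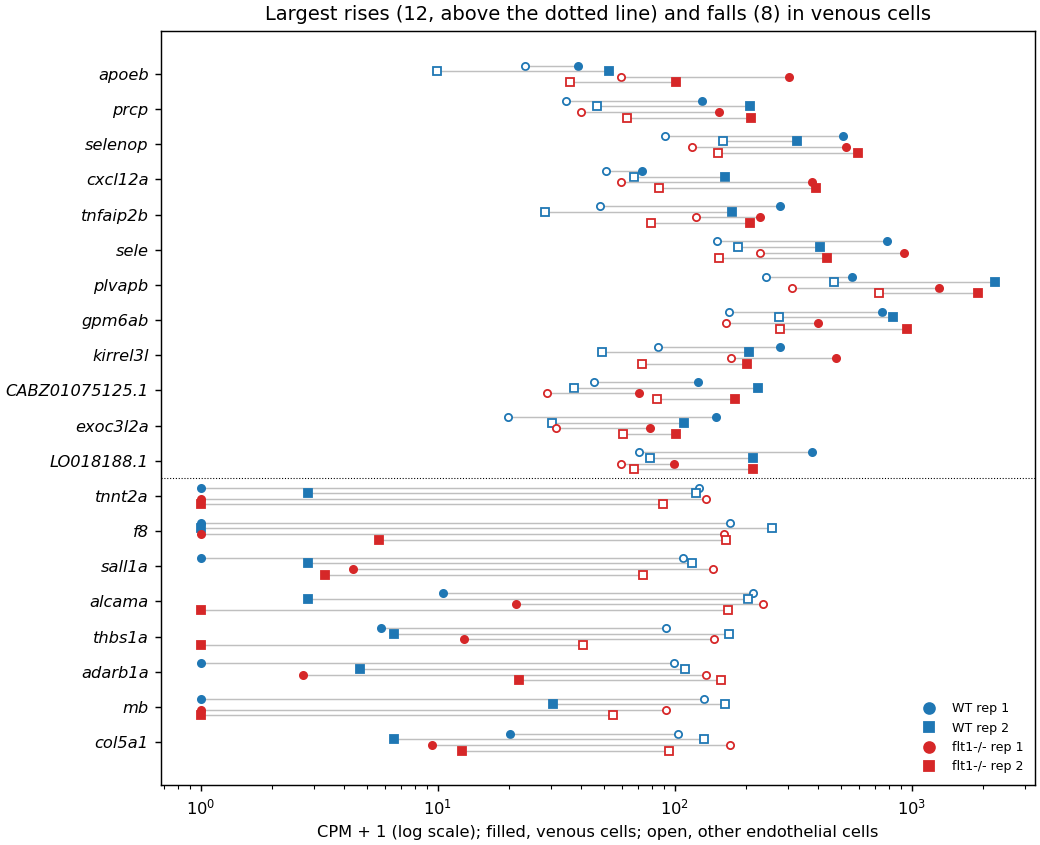
CPM plus 1, on a log axis, of the 12 genes with the largest rises and the 8 with the largest falls in venous against other endothelial cells, where filled points are venous cells and open points the other cells, 1 pair for each library, joined by a line (flt1-/- marks the flt1 mutant libraries). For prcp, selenop and sele the 4 venous points lie above all 4 points of the other cells, and for apoeb the venous levels spread from 38.1 to 300.5 CPM.

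Among further venous identity genes, 8 of 9 in the files were tested, 4 were higher and 1 was lower in venous cells, with a median of log2 0.61. nrp2b, which encodes a co-receptor for Vegfc, was higher by log2 0.99 (SE 0.17, adjusted p = 0.00237, edgeR), with 138.2, 202.5, 140.1 and 188.3 CPM against 53.7, 105.9, 56.2 and 115.7 CPM. No venous sum fell below the highest of the other cells. aplnra, an apelin receptor gene, was at 252.5, 388.4, 430.4 and 365.0 CPM against 140.6, 250.3, 218.2 and 198.0 CPM (log2 0.78, SE 0.15, adjusted p = 0.00524, edgeR), again with no overlap. With mixed cells left out neither passed, at 0.42 for nrp2b and 0.56 for aplnra, nor did nr2f1a (0.76) and flt4 (0.50). nr2f1a (log2 0.82) and flt4, the Vegfc receptor gene (log2 0.66), had passed in the main comparison, but nr2f1a lost its call without flt1 mutant replicate 1 (log2 0.69) or replicate 2 (0.82), and flt4 without WT replicate 2 (0.52) or flt1 mutant replicate 2 (0.69) and in the matched comparison (0.51, adjusted p = 0.196, edgeR). vegfc itself, the ligand, was lower: no UMI was found in 3 venous sums and 9.30 CPM in the fourth, against 28.3 to 46.4 CPM in the other cells (log2 -4.04, adjusted p = 0.000693, edgeR).

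Arterial genes gave a mixed picture. Of 11 tested, 4 were lower and 1 was higher, with a median of log2 -0.60. The abundant members dll4 (mean 1431 against 1292 CPM, log2 -0.02) and efnb2a (680.6 against 603.3 CPM, log2 0.10) did not pass the test. Among cells without the excluded genes, however, their means were lower in the venous groups, a difference that was not tested. For efnb2a they were 1173 CPM with 1 or 0 venous genes, 952.3 CPM with 2 and 593.5 to 741.5 CPM in the venous groups. For dll4 they were 2056, 2194 and 1307 to 1856 CPM in the same order. The 8 arterial genes listed above summed to 2854, 3177, 1310 and 2706 CPM in venous cells. In the other cells they summed to 2711, 2103, 2512 and 3166 CPM, less than in venous cells in the WT libraries and more in the flt1 mutant libraries. hey2, a Notch target and arterial transcription factor gene, was at 4.77, 12.9, 6.75 and 2.33 CPM in venous cells and at 78.4, 121.4, 89.6 and 106.0 CPM in the others, ranges that did not meet (log2 -3.86, SE 0.30, adjusted p = 3.83e-06, edgeR). unc5b, a netrin receptor gene of arteries and tip cells, differed by log2 -4.40, with 2 of the 4 venous sums at 0. cxcr4a differed by log2 -2.32 but varied from 1.69 CPM in flt1 mutant replicate 1 to 257.3 CPM in WT replicate 1, and its adjusted p without flt1 mutant replicate 2 was 0.0583 in edgeR (log2 -2.30). dlc, a Notch ligand gene, was higher by log2 0.86, but its sign changed once venous cells with 3 or more arterial genes were taken out (-0.32) and in the matched comparison (-0.08). Its call was also lost without mixed cells (0.36), WT replicate 1 (0.83), WT replicate 2 (0.56) or flt1 mutant replicate 2 (0.90). esm1, a tip cell gene that Vegfa induces, stood at 157.2, 312.9, 121.5 and 739.2 CPM against 564.1, 633.9, 909.8 and 1267 CPM (log2 -1.63, adjusted p = 0.00121, edgeR).

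Coagulation genes were more often lower than higher. Of 7 described, 3 were lower and 1 was higher in venous cells, with a median of log2 -2.54. f8, the gene of coagulation factor VIII, had 2 UMIs in all venous cells and 1897 in the others, and its pooled level in the other cells was 169.9 times as high (95% counting interval 47.0 to 1403). vwf, the gene of von Willebrand factor, which carries factor VIII, was lower by log2 -3.24 (SE 0.60, adjusted p = 0.00388, edgeR). tfpia, an inhibitor of the tissue factor pathway, was lower by log2 -2.84 in the same fit. f3b, a tissue factor gene, was the one that was higher (log2 1.00, SE 0.19, adjusted p = 0.00400, edgeR). In the matched comparison f8 was still lower (log2 -4.39), while tfpia did not pass, at -1.30, and vwf was not tested. Against arterial cells 1 of 4 coagulation genes tested was higher and 0 were lower, with a median of log2 -0.19. Against lymphatic cells 1 of 3 was higher and 1 lower.

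Of 12 endocardial genes tested, 7 were lower and none higher, with a median of log2 -1.13. has2, a hyaluronan synthase gene of valve-forming endocardium, had no UMI in venous cells and was at least 19.0-fold lower, taking 3 counts over all venous cells as the limit. It was not tested in the matched comparison. hapln1b, notch1b and gata6 lost their calls in the matched comparison, and gata6 changed sign there (0.75). Besides f8, the 8 largest falls were those of the following genes. tnnt2a, the cardiac troponin T gene, had 1 UMI in venous cells and 1169 in the others, a pooled ratio of 209.4 (95% counting interval 37.6 to 8272). In the matched comparison tnnt2a was not tested, and the other cells here include those with the excluded heart genes. sall1a, alcama, thbs1a, adarb1a, mb and col5a1 were lower by log2 -5.64 to -3.74, of which sall1a (log2 -3.67), alcama (-3.13) and mb (-2.28) still passed in the matched comparison, while adarb1a (-1.40) and col5a1 (-1.78) did not and thbs1a was not tested. mb, the myoglobin gene, was at -0.74 with mixed cells left out (adjusted p = 0.752, edgeR).

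Transcription factors of the endothelial lineage showed 3 higher genes of 8 tested, with a median of log2 0.09. etv2, the ETS factor that specifies endothelium, was at 814.8, 835.7, 756.2 and 1062 CPM against 363.8, 395.1, 399.5 and 528.9 CPM (log2 0.98, SE 0.13, adjusted p = 0.000390, edgeR). The ranges were separate, but the adjusted p was 0.0591 in the matched comparison (log2 0.54). The other called members, fli1b (0.63) and lmo2 (0.54), lost their calls without WT replicate 1 (0.61 and 0.50), WT replicate 2 (0.55 and 0.62) or flt1 mutant replicate 1 (0.62 and 0.46), and lmo2 also without flt1 mutant replicate 2 (0.62). Neither passed with mixed cells left out (0.69 and 0.16). mafbb, a Maf factor gene that acts in lymphatic development in zebrafish, was at 257.3, 97.6, 275.1 and 160.4 CPM against 71.2, 64.2, 80.5 and 65.9 CPM. The ranges did not overlap (log2 1.34, SE 0.21, adjusted p = 0.00115, edgeR). In the matched comparison the difference was log2 2.63, but mafbb gave no call against the lymphatic cells described below. bmp6, a BMP ligand gene, was the only member called among 18 BMP and TGF-beta genes (log2 1.18, SE 0.16, adjusted p = 0.000428, edgeR).

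Some lists are given here beside the share over all 8653 genes tested against the other endothelial cells, 2.37% higher and 3.46% lower. At that share short lists would hold few calls or none, so their counts say little about the programmes. None of 13 cell cycle genes, 14 immediate early and stress genes, 5 Tie and angiopoietin genes or 6 brain capillary genes passed the test in edgeR or in DESeq2. At an unadjusted p under 0.05 in edgeR these lists held 0, 4, 1 and 1 genes. Of 22 clathrin endocytosis genes, snx5 (log2 0.88) was higher and epn2 (log2 -1.12) lower, with a median of 0.09. The call of snx5 was lost without WT replicate 1 (0.83), flt1 mutant replicate 1 (0.88) or flt1 mutant replicate 2 (0.86). With mixed cells left out neither passed, at 0.64 and -0.82. These figures leave out dab2, which the rule used. Of 13 Notch pathway genes 1 was higher and 3 were lower, and of 8 VEGF receptor and co-receptor genes 2 were higher, flt4 and nrp2b.

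Lysosomal genes were then followed from class to class, since the scavenger receptors of the rule deliver their cargo to lysosomes. Against all other endothelial cells 4 of 20 tested genes were higher and none lower, with a median of log2 0.33 (all genes -0.02). Those were lgmn (log2 1.01), ctsz (0.89), lamp2 (0.83) and hexb (0.73). In the matched comparison they differed by more, lgmn by 2.34, hexb by 1.67, lamp2 by 1.66 and ctsz by 1.55. With mixed cells left out none of them passed against the other endothelial cells, at 0.72, 0.72, 0.43 and 0.36 for lgmn, ctsz, lamp2 and hexb. lgmn lost its call without WT replicate 1 (0.93), flt1 mutant replicate 1 (0.86) or flt1 mutant replicate 2 (0.94), ctsz without WT replicate 1 (0.67) or flt1 mutant replicate 1 (0.93), and hexb without WT replicate 1 (0.66), WT replicate 2 (0.76) or flt1 mutant replicate 2 (0.67).

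Arterial cells, the nearest class of blood endothelium, were taken as the 262 endothelial cells with at least 3 of the 8 arterial genes that were not venous by the rule and lacked the excluded genes. They formed 46, 37, 99 and 80 cells. All of them were also among the other cells of the matched comparison above, so these comparisons overlap and are not independent. After the genes of the rule and of the arterial condition were removed, 5859 genes were tested, and 198 (3.38%) were higher and 156 (2.66%) lower in venous cells. Here 8 of 16 lysosomal genes tested were higher in venous cells and none was lower, with a median of log2 0.99 against -0.02 over all genes. lgmn was at 252.5, 265.1, 334.2 and 362.6 CPM in venous cells and at 26.6, 49.6, 70.7 and 73.4 CPM in arterial cells, with a wide gap between the ranges (log2 2.47, SE 0.20, adjusted p = 3.36e-05, edgeR). ctsla was at 4379, 2135, 5307 and 4647 CPM against 1337, 1420, 1955 and 1320 CPM, also without overlap (log2 1.38, SE 0.20, adjusted p = 0.00104, edgeR). The lysosomal proteases encoded by ctsz, ctsba and ctsd were higher by log2 1.87, 1.37 and 1.13, the hydrolase gene hexb by 1.71 and the membrane protein gene lamp2 by 1.76. psap, the gene of the saposin precursor, was higher by 0.75, a call that was lost without any 1 of the 4 libraries (0.70, 0.70, 0.85 and 0.77) and without mixed cells (0.49). lgmn, ctsla, ctsba, ctsz, lamp2 and hexb passed the test in all 12 alternatives of this comparison, mixed cells left out included, and ctsd in all but that one (0.94, adjusted p = 0.078, edgeR).

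**Figure D4:**
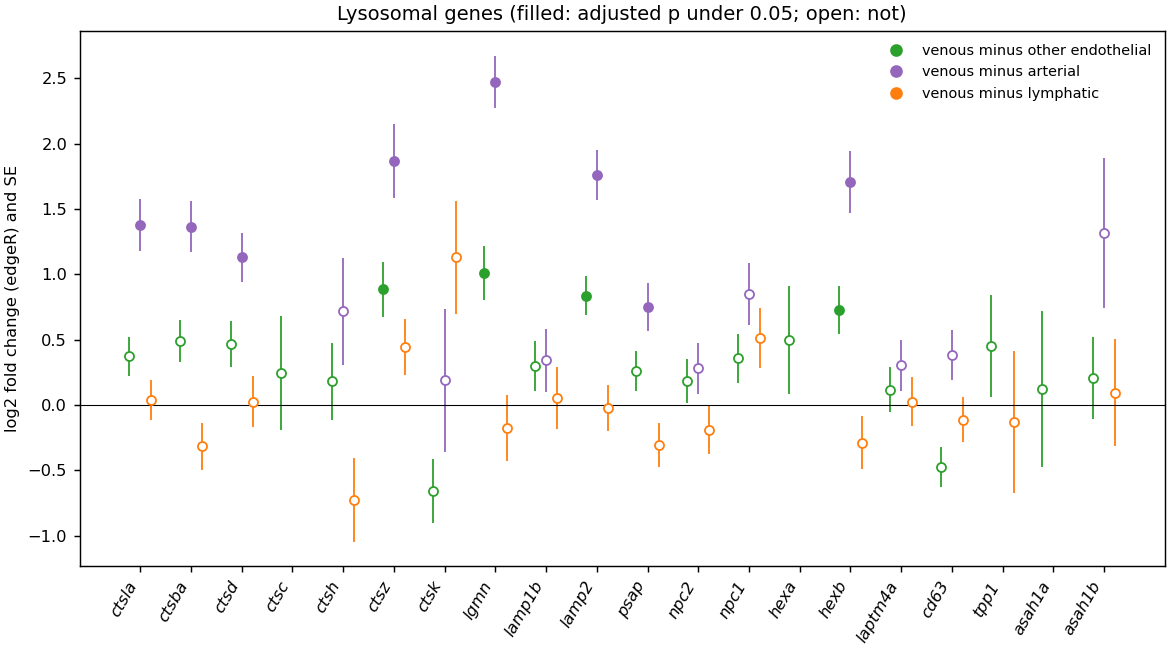
Log2 fold changes of lysosomal genes from edgeR, with SE as vertical bars, for venous minus other endothelial, venous minus arterial and venous minus lymphatic cells, where filled points have an adjusted p under 0.05 and open points do not, and a gene without a point was not tested in that comparison. The 8 filled points against arterial cells run from 0.75 for psap to 2.47 for lgmn, and no point against lymphatic cells is filled.

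The leading genes of the same comparison were largely those seen above. cldn11a, a claudin gene, was at 219.2, 139.9, 64.1 and 248.7 CPM in venous cells and at most 9.89 CPM in arterial cells (log2 4.56, SE 0.42, adjusted p = 8.30e-05, edgeR). igf2a, an insulin-like growth factor gene, was higher by log2 3.92 but ranged from 7.36 CPM in WT replicate 2 to 192.4 CPM in flt1 mutant replicate 1 in venous cells. mafbb, sele, cxcl12a and selenop were higher by log2 3.15, 2.99, 2.77 and 2.57, and all 4 passed in all 12 alternatives. plvapb was also called higher, but its call was kept in only 5 of 12 alternatives. It was lost without WT replicate 1 (0.82), WT replicate 2 (0.65), flt1 mutant replicate 1 (0.49) or flt1 mutant replicate 2 (0.84). Of the venous identity genes, 3 of 8 were higher and 1 lower, with nrp2b at log2 2.09 (SE 0.27, adjusted p = 0.000468, edgeR). nr2f1a (0.90) and ephb4b, the other EphB4 receptor gene of zebrafish (0.86), were the others, and neither passed in all settings. nr2f1a lost its call without WT replicate 1 (0.89), flt1 mutant replicate 1 (0.80) or flt1 mutant replicate 2 (0.85), and ephb4b without any 1 of the libraries (0.83, 0.98, 0.65 and 0.96) or without mixed cells (1.01, adjusted p = 0.0764, edgeR). flt4 and aplnra, called against the other endothelial cells, gave no call against arterial cells, and their ranges overlapped. aplnra was at 252.5 to 430.4 CPM in venous and 142.7 to 360.7 CPM in arterial cells. flt4 was at 114.8 to 217.2 CPM and 73.5 to 206.2 CPM.

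Of 6 tip cell genes tested against arterial cells 3 were lower in venous cells and none higher. esm1 was at 157.2, 312.9, 121.5 and 739.2 CPM against 1296, 1453, 2236 and 3144 CPM (log2 -2.85, SE 0.29, adjusted p = 0.000106, edgeR), and no venous sum reached the lowest arterial one. apln, the apelin ligand gene, was lower by log2 -2.98 (SE 0.36) and pdgfbb, which encodes the ligand that recruits mural cells, by -1.49 (SE 0.17). Of 9 Notch pathway genes 2 were lower and none higher, the target gene hey1 (log2 -2.40) and the ligand gene jag2b (-1.55), while the targets her6 and her9 did not pass, at -0.48 and -0.71. hey2, dll4, dlc and notch3 had chosen the arterial cells. her2, a hairy-related transcription factor gene, was lower by log2 -3.86, and ncam3, a cell adhesion gene, had 3 UMIs in venous cells against 318 in arterial cells, a pooled ratio of 97.6 (95% counting interval 33.4 to 473.5). CABZ01030107.1, an unnamed gene, was lower by log2 -4.65. The remaining large differences were globin genes, hbae1.1 at log2 -3.72 and the records of hbae1.3 at -4.10 and -3.86, near-identical copies whose reads may be split between records. With mixed cells left out, the 1 of these records still tested (ENSDARG00000088330, -3.86) was at -0.33 (adjusted p = 0.826, edgeR). The erythrocyte markers as a whole summed to 7882, 165.5, 22690 and 279.5 CPM in arterial cells, against the venous sums given above, so that the gap stood mainly in WT replicate 1 and flt1 mutant replicate 1, and its part in the other differences was tested only by leaving out mixed cells.

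Lymphatic endothelium, which derives from veins and shares all 8 venous genes, was taken as 149 cells with at least 2 of prox1a, tbx1 and cdh6 and none of hand2 and gata5 (16, 52, 41 and 40 cells). Of 5547 genes tested, 346 (6.24%) were higher and 294 (5.3%) lower in venous cells. Of 7 venous identity genes tested, 1 was higher and 1 lower in venous cells, with a median of log2 0.01. flt4 was at 342.5, 269.5, 188.0 and 218.4 CPM in lymphatic cells and at 128.7, 217.2, 114.8 and 197.6 CPM in venous cells. Its level was thus higher in lymphatic cells within each library. Lysosomal genes did not separate these classes by the test: 0 of 17 passed in edgeR or DESeq2 (3 and 0 at an unadjusted p under 0.05), with a median of log2 -0.02 (all genes 0.00), and ctsla differed by 0.04 (SE 0.15). VEGF signalling genes did. flt1 was at 285.9, 252.2, 293.7 and 192.9 CPM in venous cells and at 46.1, 35.7, 45.1 and 37.6 CPM in lymphatic cells (log2 2.63, SE 0.20, adjusted p = 8.92e-06, edgeR). kdrl was higher by log2 2.34 (SE 0.25, adjusted p = 7.28e-05, edgeR), with 92.2 to 308.0 CPM in lymphatic cells, and for both genes the ranges were far apart. The neuropilin genes nrp1b and nrp1a were higher by log2 2.59 and 1.26, and nrp2a was lower by 2.18. nrp1a lost its call without WT replicate 1 (1.05), WT replicate 2 (1.51) or flt1 mutant replicate 1 (1.05), and nrp1b without WT replicate 2 (2.24). Neither passed without mixed cells, at 1.55 and 2.79.

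Basement membrane genes were also higher in venous than in lymphatic cells, 5 of 9 tested, with 1 lower and a median of log2 0.80. The collagen IV genes col4a1 and col4a2 differed by log2 2.27 (SE 0.26) and 2.23 (SE 0.21), the laminin gene lama4 by 2.08 (SE 0.29) and sparc, a matrix-binding protein gene, by 2.10 (SE 0.32). nid1b, at 0.71, lost its call without WT replicate 1 (0.66), WT replicate 2 (0.79) or flt1 mutant replicate 2 (0.58), and fn1a, the fibronectin gene, was lower by log2 1.74. When the rule was applied to cells thinned to 2000 UMIs, which left 6 sums, col4a1 and col4a2 did not pass (0.52 and 1.13), nor did nrp2a (-0.74). Without mixed cells sparc (2.73, adjusted p = 0.142, edgeR) and nid1b (0.66) did not pass.

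Further genes set the venous cells apart from lymphatic cells. The apelin receptor genes aplnra and aplnrb were higher by log2 1.99 and 1.81, plvapb by 2.20, bmp6 by 3.63 and pdgfbb by 3.95. aplnrb lost its call once venous cells with 3 or more arterial genes were left out (0.83, adjusted p = 0.228, edgeR). rgcc, a cell cycle regulator gene, was at 652.8, 515.4, 909.8 and 453.3 CPM against 26.3, 17.1, 87.8 and 35.2 CPM, the ranges being well apart (log2 4.01, SE 0.25, adjusted p = 2.52e-06, edgeR). aoc2, an amine oxidase gene, tcf15, a transcription factor gene, and cd81b, a tetraspanin gene, were higher by log2 4.68, 4.59 and 3.54. None of them passed when the rule was applied to thinned cells, at 4.70, 4.02 and 2.48. The venous levels of tcf15 were uneven, at 238.3, 25.8, 273.4 and 20.9 CPM. Of 8 arterial identity genes 4 were higher and none lower, among them dlc (log2 3.07) and dll4 (1.35), but dll4 and efnb2a (0.68) lost their calls once venous cells with 3 or more arterial genes were left out (0.25 and -0.26). efnb2a also lost its call without WT replicate 1 (0.65), WT replicate 2 (0.50) or mixed cells (0.62). Of 6 genes known to respond to flow 3 were lower and 1, nfe2l2a, was higher (log2 1.17), with piezo1, a mechanosensitive channel gene, at log2 -1.73 (SE 0.25, adjusted p = 0.000517, edgeR) and klf6a at -0.83 (SE 0.15). klf2a, at -0.82, lost its call without WT replicate 1 (-0.98), WT replicate 2 (-0.84) or flt1 mutant replicate 2 (-0.52).

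On the lymphatic side, csrp1b had no UMI in venous cells and 179 in lymphatic cells, and was at least 80.4-fold lower, with 3 counts over all venous cells as the limit. nqo1, a quinone reductase gene, was lower by log2 -5.02 (SE 0.40) and celsr1b, a planar polarity cadherin gene of lymphatic valves in mice, by -3.60 (SE 0.34). si:ch73-380l10.2 had 3 UMIs in venous cells and 311 in lymphatic cells, a pooled ratio of 109.7 (95% counting interval 37.5 to 532.0), and si:ch211-152c2.3 and si:ch211-176g6.2 were lower by log2 -4.60 and -4.35.

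The last question was whether loss of flt1 changed the venous cells. In them, flt1 was at 285.9 and 252.2 CPM in the WT libraries and at 293.7 and 192.9 CPM in the flt1 mutant libraries. The groups overlapped (log2 -0.11, SE 0.40, adjusted p = 0.999, edgeR), and a 3-prime tag outside the mutated part of the gene does not check the label. Venous cells made up 12.4% (95% Clopper-Pearson interval 8.17% to 17.7%) and 17.8% (13.8% to 22.3%) of the endothelial cells in WT and 15.6% (12.3% to 19.5%) and 13.8% (10.4% to 17.9%) in flt1 mutants. The group means, 15.1% ± 3.81 and 14.7% ± 1.31 (SD, n = 2 libraries each), differed by -0.36 percentage points, less than the spread between WT libraries (two-sided exact permutation p = 1). With 2 libraries against 2 this test cannot give a p below 0.333. When the rule was applied to cells thinned to 2000 UMIs, the shares were 9.63% and 12.4% in WT and 6.02% and 8.27% in flt1 mutants, groups that did not overlap.

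No gene passed the test between flt1 mutant and WT venous cells: 0 of 5048 (0%) in edgeR and 0 in DESeq2, with 245 genes (4.85%) at an unadjusted p under 0.05 in edgeR and 80 in DESeq2. The smallest adjusted p was 0.702 in edgeR, and the median SE over all genes was log2 0.45. cxcl12a was at 71.5 and 162.0 CPM in WT and at 376.4 and 392.9 CPM in flt1 mutants, groups that did not overlap, but its log2 difference of 1.70 (SE 0.42) had an adjusted p of 0.95 in edgeR. Vegf receptor genes gave no call, with kdrl at log2 -0.37 (SE 0.33), kdr at -0.02 (SE 0.42) and flt4 at -0.18 (SE 0.37). aplnra differed by 0.33 (SE 0.38), lgmn by 0.43 (SE 0.34) and sele by 0.23 (SE 0.54). With the replicate number as a block, an alternative fit, 77 of 5048 genes passed in edgeR, 50 higher and 27 lower in flt1 mutants.

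Whether a genotype difference in venous cells departed from that in the other endothelial cells was tested as an interaction, and 4 of 8653 genes (0.0462%) passed, of which 3 are described. s100a10b, which encodes an annexin partner, was at 66.7, 5.52, 238.0 and 183.6 CPM in venous cells and at 1216, 1029, 1479 and 814.3 CPM in the others (log2 3.26, SE 0.53, adjusted p = 0.0294, edgeR). Its mutant levels were thus the higher ones in venous cells only, and they stayed far below those of the other cells. Without WT replicate 2 its adjusted p was 0.0959 in edgeR (log2 2.03), and with mixed cells left out its sign changed (log2 -0.34).

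nkx2.3, a homeobox gene, was at 47.7, 198.8, 42.2 and 9.30 CPM in venous cells and at 32.0, 32.6, 99.5 and 141.4 CPM in the others (log2 -3.89, SE 0.65, adjusted p = 0.0326, edgeR). Its venous WT levels were the higher ones, and in the other cells the mutant levels were. Without WT replicate 2, whose level was the highest, its adjusted p was 0.547 in edgeR (log2 -2.40), and with mixed cells left out it did not pass either (log2 -1.56). rrm2 (the record ENSDARG00000078069, 1 of 2 with that symbol), a gene of the ribonucleotide reductase used in DNA synthesis, was at 95.3, 169.4, 28.7 and 88.3 CPM against 33.2, 67.8, 70.6 and 166.7 CPM (log2 -2.30, SE 0.36, adjusted p = 0.0259, edgeR), and its adjusted p without WT replicate 2 was 0.0554 in edgeR (log2 -2.36).

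**Figure D5:**
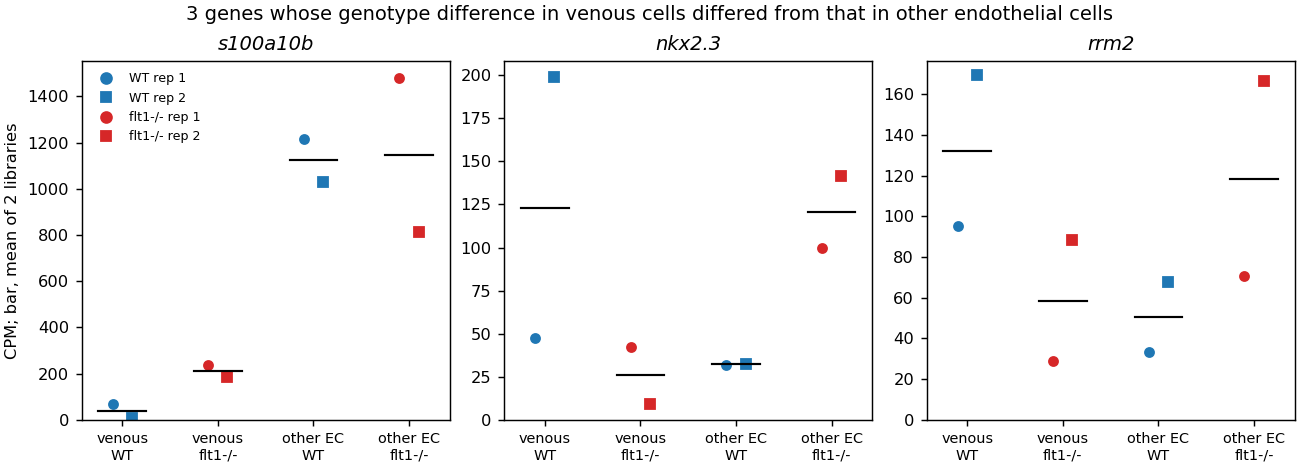
Levels in CPM, on linear axes, of 3 genes past the interaction test, by genotype, in venous and other endothelial cells (other EC), where each point is 1 library, flt1-/- marks the flt1 mutant libraries, and bars are means of 2. The venous points of s100a10b are 66.7 and 5.52 CPM in WT and 238.0 and 183.6 CPM in flt1 mutants, while its points in the other cells overlap between genotypes.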

How the data were processed

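The authors sorted GFP-positive cells, made 4 single cell libraries with the 10x Genomics 3-prime protocol (the labels and the study's methods name different chemistry versions) and used Cell Ranger 6.1.1 with GRCz11 to count UMIs in each called cell. The deposited values were whole, unnormalized counts, with no cell annotation. Embryos were pooled before sorting, so no p-value measures the spread between single embryos. Between classes, with the library as a block, p-values measure how steady a difference was within the libraries. Between genotypes in venous cells they measure the spread between pools.

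Limits of over 200 and under 4500 genes, with mitochondrial counts below 5%, were set on each cell; 39 further cells met the gene conditions but failed the mitochondrial limit. Doublets were not removed. Erythrocytes were cells with at least 6 of 8 erythrocyte markers, a threshold set after the data had been seen, and with no UMI of the 8 pan-endothelial genes. Counts were summed per library and class (at least 10 cells) and fitted in edgeR 4.0.16 (R 4.3.3; quasi-likelihood F-test, two-sided), with TMM, filterByExpr, the library as a block between classes and genotype alone between genotypes. Benjamini-Hochberg adjustment covered every gene tested (threshold 0.05). SE is the log2 difference divided by the square root of F. CPM are not TMM-scaled. Fold limits used 3 counts over the group, and intervals (95%) cover counting error only. The fits were tested on simulated data.

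Genes were named by rule: the genes of the cell rule and flt4, nr2f2, kdrl and flt1; the 12 largest rises and 8 largest falls against the other endothelial cells, and 6 of each against arterial and lymphatic cells, among genes past the threshold, changed alike in all 4 libraries and at 100 CPM or more in the higher class; and up to 4 called members of each list. The cell rule, the 33 lists and the tests were chosen with earlier results of these data known. Alternatives were DESeq2 1.42.0, no filter on low counts, at least 2 or 4 venous genes, cells thinned to 2000 UMIs before the rule, mixed cells left out (2 or more myeloid, mesenchymal, neural or epithelial markers of 1 kind, or over 1% of UMIs from erythrocyte markers), venous cells with 3 or more arterial genes left out, no library block, the replicate number as a block, and each library left out in turn. 1 gene that passed the tests is not reported here. No genome was used, so no coordinates are given.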

Additional observations from a re-analysis of the deposited data

Results flagged for a closer look

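For 3 genes the difference between flt1 mutant and WT in venous cells departed from that in the other endothelial cells in a test of the difference itself (edgeR, interaction of class and genotype). The value was log2 3.26 for s100a10b, -3.89 for nkx2.3 and -2.30 for rrm2 (ENSDARG00000078069). None of the 3 passed when at least 2 venous genes were asked for, or in DESeq2. With the rule applied to thinned cells no call of these 3 genes was kept, and rrm2 (0.82) changed sign. With mixed cells left out s100a10b was at -0.34 and nkx2.3 at -1.56, and neither passed.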

How the results depend on the processing

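Of 199 gene results, 69 passed in the same direction under every alternative run; over 2401 values, 514 lost the call and 13 changed sign. The 40 alternative values of the left-out venous genes gave the same calls. Sign changes stood at -0.34 (mixed cells left out) for s100a10b in the interaction, and at 0.82 (thinned) and 1.76 (arterial genes left out) for rrm2. Against the other endothelial cells they stood at -0.13 (thinned), -0.17 (arterial genes left out) and -0.40 (matched) for aplnrb, -0.32 (arterial genes left out) and -0.078 (matched) for dlc, 0.75 and 0.45 (matched) for gata6 and fn1a, 0.20 (thinned) for blvrb and 0.19 (mixed cells left out) for hbae3, and against lymphatic cells at -0.26 (arterial genes left out) for efnb2a. The cause was not tested. Calls against the other endothelial cells, 504, were 153 without mixed cells, 182 without the library block, 323 with arterial genes left out and 334 in the matched comparison. Those against arterial cells, 354, were 204 in DESeq2, 211 without mixed cells, 554 without the filter, 123 without the block, and 196 to 353 with 1 library left out (210 without WT replicate 1, 196 and 209 without flt1 mutant replicates 1 and 2). Those against lymphatic cells, 640, were 395 in DESeq2, 260 in thinned cells, 266 without the block, 272 with arterial genes left out, and 349 to 568 with 1 library left out (349 without WT replicate 2). Genotype gave 0 calls in venous cells but 79 without the filter, 63 with arterial genes left out, and 0 to 111 with 1 library left out (8 without WT replicate 2, 22 and 111 without flt1 mutant replicates 1 and 2). The interaction, with 4 calls, gave 1 in DESeq2, 0 with at least 2 venous genes (365 at an unadjusted p under 0.05), 7 without mixed cells, 51 without the filter, 32 with arterial genes left out, and 7 to 56 with 1 library left out (42 and 7 without WT replicates 1 and 2, 19 and 56 without flt1 mutant replicates 1 and 2). With the replicate block, genotype gave 77 calls and the interaction 63. Same-numbered libraries deviated together in part (correlation 0.42 over genes, from 2 pairs). The labels tie no libraries by number, so the numbers were not treated as pairs in the main fits, and a shared replicate effect was not tested further. The mean share of venous cells, 15.1% in WT and 14.7% in flt1 mutants, was 10.0% in each with at least 4 venous genes, 11.02% and 7.15% in thinned cells, 4.40% and 3.45% of all kept cells, and 20.8% in flt1 mutants with at least 2 venous genes. WT replicate 1 held the fewest venous cells, 25.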

Other observations

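Some further genes passed the test against the other endothelial cells. Of 10 adhesion and leukocyte traffic genes 1 was higher and 1 lower, of 10 junction genes 1 was higher, and of 13 basement membrane genes 1 was lower. Over all genes tested 2.37% were higher and 3.46% lower. postnb, which encodes a periostin, a matrix protein, was at 57.2, 29.5, 76.0 and 97.6 CPM in venous cells and at 23.5, 3.29, 10.2 and 13.1 CPM in the others. The ranges did not overlap (log2 2.52, SE 0.31, adjusted p = 0.000207, edgeR). It passed in all 12 alternatives run for it, while genes such as prcp had 13. postnb is also 1 of the mesenchymal markers used to define mixed cells. cldn5b, a junction claudin gene, was at 1525, 960.9, 4625 and 2167 CPM against 927.4, 553.0, 2661 and 1058 CPM, with overlapping ranges and the highest level in flt1 mutant replicate 1 in each class (log2 0.77, SE 0.13, adjusted p = 0.00252, edgeR; log2 0.53 and adjusted p = 0.0918 in the matched comparison; log2 0.48 and adjusted p = 0.152 with mixed cells left out).

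lpl, the lipoprotein lipase gene, went the other way, at 9.53, 14.7, 11.8 and 6.97 CPM against 80.3, 95.7, 47.1 and 40.5 CPM (log2 -2.57, SE 0.28, adjusted p = 7.27e-05, edgeR), and it passed in the matched comparison at log2 -2.07, but not with mixed cells left out (log2 -1.46, adjusted p = 0.105, edgeR). plvapa, the paralog of plvapb, was lower by log2 -3.05 (SE 0.57, adjusted p = 0.00423, edgeR), while plvapb was higher. Without flt1 mutant replicate 1 the value of plvapa was -2.43 (adjusted p = 0.065, edgeR), and with at least 2 venous genes asked for it was -0.43.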
